A study of Mus musculus with 8 samples.

Results

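The DNA damage response and repair genes described here are 39 of the 11854 named entries of a table of gene expression in haematopoietic stem cells (HSCs), which sustain all blood lineages from the bone marrow. They were chosen by symbol from a list of 41 genes covering the checkpoint kinases, homologous recombination, end joining, the Fanconi pathway, mismatch repair, base excision with single-strand break repair, nucleotide excision repair and the RecQ helicases. The other 2 listed genes were not analysed here. The HSCs were sorted from bone marrow of wild type and Nupr1-/- mice of C57BL/6J background, and each genotype has 4 polyadenylated RNA libraries. The labels do not say whether each library is a separate mouse, so p-values measure the spread between these libraries, which may be technical. Nupr1 encodes a small stress-induced chromatin protein, and the series title links it to HSC quiescence and the p53 pathway. The labels give neither age nor sex, nor the surface markers of the sort, and which part of Nupr1 was deleted is not stated in the labels.

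Cells meet DNA damage with sensor kinases that halt the cell cycle and with repair routes matched to the lesion. Breaks of both strands are copied back from the sister chromatid by homologous recombination or rejoined directly by end joining. Crosslinks between strands need the Fanconi pathway, and damaged or mispaired bases are cut out by the excision and mismatch routes. Quiescent HSCs are known to lean on end joining, since a sister chromatid exists only after replication, and loss of Fanconi genes is known to exhaust HSCs and to cause bone marrow failure.

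Whole reads recovered from the deposited values numbered 2296101 to 4769401 per library. Nupr1, the targeted gene, was 134.0 to 318.2 normalised reads in wild type and 118.5 to 200.6 in the libraries labelled knockout, so it did not separate the groups, and every difference is between libraries as labelled. Xist was at most 11.8 in wild type and at least 107.2 in the libraries labelled knockout, so a difference in sex cannot be told apart from genotype. Wild type library 2 stood apart on the first principal component (-126.5, the other 7 libraries 0.8 to 36.9). The summed level of 10 HSC markers, all present, was 7201.5 to 9280.8 in wild type and 6352.8 to 8425.3 in the libraries labelled knockout. In a bulk sample fewer cells of a type and less RNA per cell cannot be told apart.

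No repair gene passed the test between genotypes. Of the 39 members 38 cleared the filter on low values (10 normalised reads in 4 libraries) and 0 of them differed at a limma adjusted p under 0.05, a threshold that 3.80% of all 10989 tested genes passed. At an unadjusted limma p under 0.05 there were 4 members (10.5% of 38), all higher in the libraries labelled knockout, against 19.7% of all genes. Higher genes at that threshold made up 9.91% of all genes and lower ones 9.75%. The 4 members were Fancd2, Fanci, Xrcc1 and Parp1. Fancd2 and Fanci cleared the filter only with the libraries labelled knockout, the group in which they were higher. Groups of 4 values that did not overlap were found for 2 members (5.26%), Parp1 and Ercc2, against 11.7% of all genes. Ercc2, too, cleared the filter only with the libraries labelled knockout, where it was higher. The count of members past the adjusted threshold was also 0 in edgeR (5 at an unadjusted p under 0.05 with either scaling) and in DESeq2 (8), and 1 in limma-voom with sample weights (3), where Xrcc1 had an adjusted p of 0.04998. Of all 10989 genes, 341 and 336 passed in edgeR (TMM and RLE factors), 764 in DESeq2 and 651 in limma-voom. At an unadjusted p under 0.05 there were 2000 and 1985, 2224 and 2468 of all genes in the same fits.

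The members lay above 0 more often than below. The log2 difference, knockout-labelled minus wild type on the scale of log2(normalised reads + 1), was above 0 for 25 of the 38 tested members, with a median of 0.27, while 51.3% of all tested genes lay above 0 with a median of 0.03. By role, 8 of 10 tested homologous recombination genes, 4 of 5 Fanconi genes, 5 of 6 base excision genes and 2 of 3 mismatch genes lay above 0. Of the checkpoint kinases 2 of 4 did, of the nucleotide excision genes 2 of 4, of the RecQ helicases 1 of 2 and of the end joining genes 1 of 4. Of the Fanconi genes above 0, Fanca, Fancd2 and Fanci cleared the filter only with the libraries labelled knockout, where they were higher. The same held for Atm, Ogg1 and Ercc2 in their roles. Fancb, whose mean was higher in wild type, did not clear the filter. Leaving out 1 library at a time gave 22 to 28 members above 0 and medians of 0.25 to 0.37. These counts describe the 8 libraries and carry no test of their own.

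**Figure D1:**
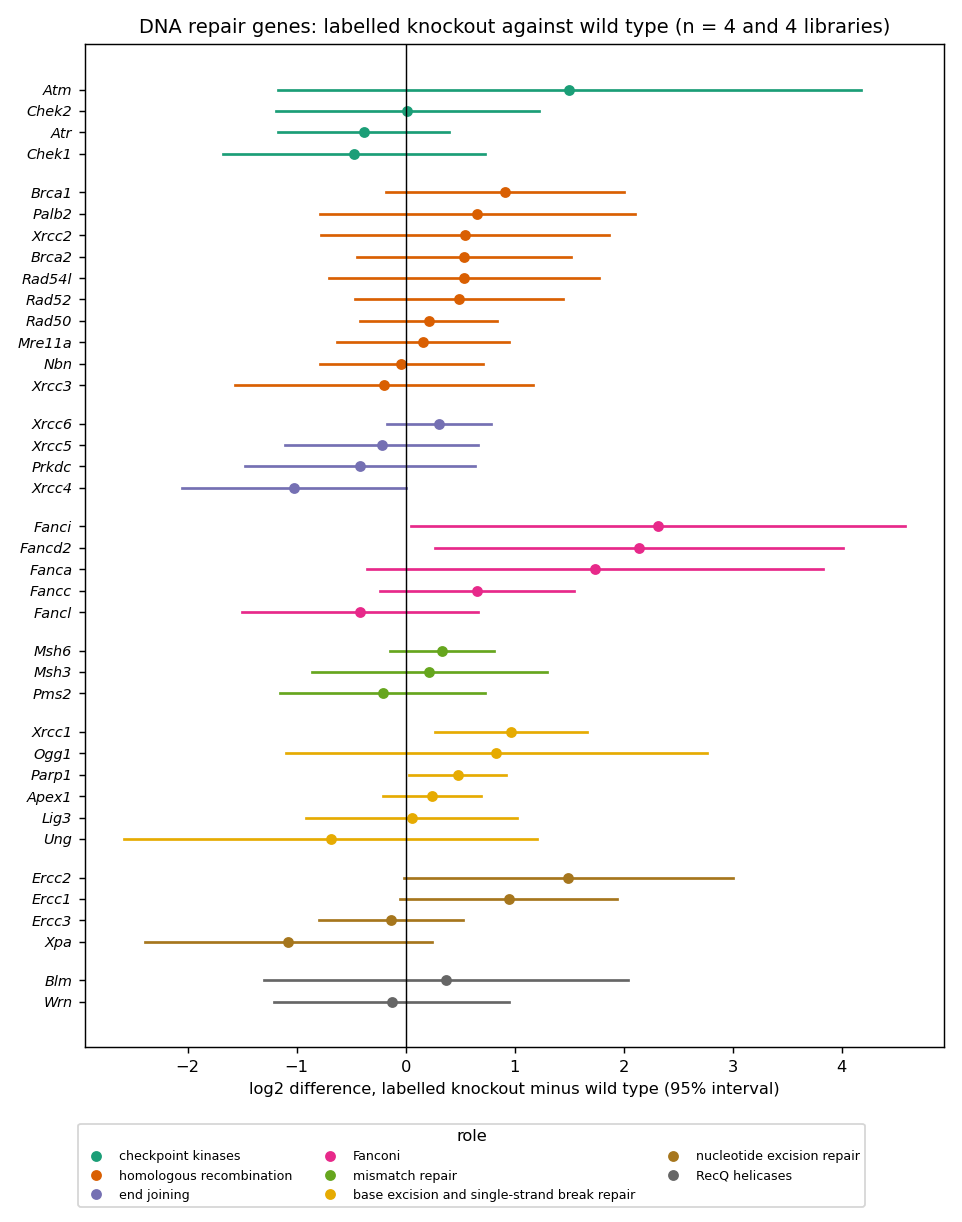
Log2 difference (labelled knockout minus wild type) with its 95% interval from limma for each of 38 DNA repair genes, grouped and coloured by role, 4 libraries per group. Intervals of Fancd2, Fanci, Xrcc1 and Parp1 lie above 0 before adjustment for the number of genes, and those of low genes such as Atm span several log2 units.

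Levels in wild type HSCs, given as normalised reads per kb of exon so that genes can be compared, ranged from 1.35 for Atm to 336.5 for Apex1, with a median of 13.7. Apex1, the endonuclease that cuts at abasic sites, was the most abundant member in both groups (336.5 ± 38.4 in wild type and 400.3 ± 66.1 in the libraries labelled knockout, SD, n = 4). Of its 1422 exon bases 877 overlap another annotated gene, as some exon bases do in 23 of the 39 members, and without strand information the reads there cannot be assigned. Parp1 (88.9 ± 11.95), Xrcc6 (88.0 ± 15.4) and Msh6 (80.4 ± 10.9) came next in wild type, and their levels lay within one another's SD. Then came Ercc3 (65.1 ± 12.2), Xpa (56.3 ± 36.01), Nbn (51.4 ± 9.08) and Xrcc5 (45.1 ± 14.2), whose ranges of mean ± SD overlapped. At the low end of the per-kb order stood Fanci (2.44 ± 2.40), Fanca (1.64 ± 1.63), Fancd2 (1.53 ± 1.24) and Atm (1.35 ± 1.56), whose SDs were about as large as their means. The order of the 39 levels was much alike in the groups (Spearman rho 0.913 across genes, which share libraries and exon lengths).

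**Figure D2:**
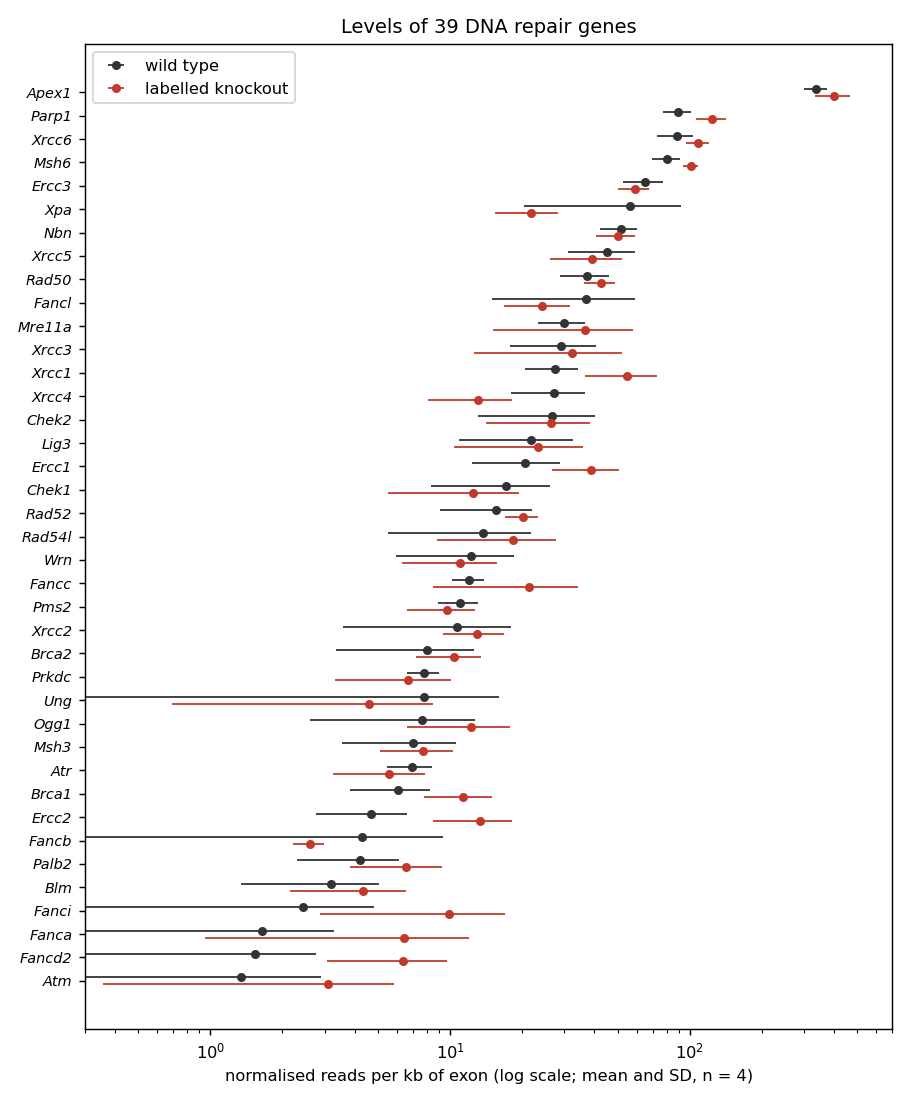
Level of 39 DNA repair genes as normalised reads per kb of exon on a log axis, mean and SD of 4 libraries in wild type (dark) and of 4 libraries labelled knockout (red); an SD larger than its mean runs off the left edge. Apex1 stands highest in both groups, and Fanci, Fanca, Fancd2 and Atm lowest in wild type.

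The checkpoint kinases did not differ beyond the spread between libraries. Atm, the kinase activated by double-strand breaks, was read at 36.2, 0, 15 and 4.5 normalised reads in wild type (libraries 1 to 4 in turn), then at 48.1, 3.7, 63.6 and 13.0 in those labelled knockout. Both groups held low and high libraries and overlapped (log2 1.4997 ± 1.28, SE, limma adjusted p = 0.545). Atr, the kinase that answers single-stranded DNA at stalled forks, averaged 165 ± 35.0 in wild type and 131 ± 54.4 in the libraries labelled knockout (SD, n = 4; limma adjusted p = 0.604). Its effector kinase Chek1 averaged 79.5 ± 41.1 and 57.6 ± 32.1 (limma adjusted p = 0.688). Chek2, the effector of Atm, averaged 79.9 ± 40.8 and 78.9 ± 36.6, the nearest to 0 of the 38 members (log2 0.02, 95% interval -1.19 to 1.22). Trp53, whose protein both Atm and Chek2 phosphorylate, is no member, and in the same fit its mean was 548 ± 75.0 in wild type and 99.4 ± 28.2 in the libraries labelled knockout (SD, n = 4; limma adjusted p = 0.00155).

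Homologous recombination genes lay mostly above 0 with none past the threshold. Brca1, which acts early at resected breaks, was at 65.5, 67.0, 47.9 and 26.5 in wild type libraries 1 to 4. It was at 51.0, 109.7, 114.0 and 112.0 in libraries 1 to 4 labelled knockout. Libraries 2, 3 and 4 labelled knockout lay above all wild type libraries and library 1 among them (log2 0.91 ± 0.52, SE, limma adjusted p = 0.351). Its partner Palb2 averaged 31.0 ± 14.1 and 47.96 ± 19.8, and Brca2, which acts on resected ends, 109.1 ± 63.4 and 141.1 ± 43.1. Rad52, an annealing factor, averaged 89.4 ± 37.2 and 115 ± 17.9, and Rad54l, a motor that remodels the pairing intermediate, 105.3 ± 62.8 and 140.5 ± 72.8. The recombination genes Xrcc2 (55.97 ± 37.3 and 67.9 ± 19.3) and Xrcc3 (80.04 ± 31.3 and 89.0 ± 54.5) also overlapped between groups. Xrcc3 had a higher mean in the libraries labelled knockout and a log2 difference of -0.20 ± 0.65 (SE), so the mean and the log scale differ in sign.

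The break sensor of Mre11a, Rad50 and Nbn was among the best measured complexes. Per kb of exon its subunits stood at 29.9 ± 6.68, 37.3 ± 8.56 and 51.4 ± 9.08 in wild type (SD, n = 4). The log2 differences were 0.16 for Mre11a, 0.21 for Rad50 and -0.04 for Nbn, and their 95% intervals ran from -0.63 to 0.95, from -0.42 to 0.84 and from -0.79 to 0.71. A change of 2-fold or more thus lay outside all 3 intervals as deposited. With the trend in GC content and transcript length removed, described further on, this held for Nbn alone, since the upper limits became 1.148 for Mre11a, 1.07 for Rad50 and 0.97 for Nbn. As deposited such intervals were found for 8 of the 38 members, the others being Msh6, Apex1, Ercc3, Parp1 and Xrcc6. For the other 30 members the interval reached past a 2-fold change in at least one direction, so a change of that size was not detectable or not bounded with these libraries.

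Of the end joining genes only Xrcc6 lay above 0. Xrcc4, the scaffold of the end joining ligase, was at 59.2, 146.8, 137.6 and 114.9 normalised reads in wild type (libraries 1 to 4 in turn), then at 43.7, 52.4, 38.9 and 86.1 in those labelled knockout. Wild type library 1 and library 4 labelled knockout overlapped, and the other libraries did not (log2 -1.03 ± 0.49, SE, limma adjusted p = 0.254). Xrcc6, which encodes Ku70, averaged 394 ± 68.8 and 484 ± 54.9 (log2 0.31, limma adjusted p = 0.483). Its partner Xrcc5, which encodes Ku80, averaged 115 ± 36.2 and 100.1 ± 33.4 (log2 -0.22, limma adjusted p = 0.819). Prkdc, the catalytic kinase that binds Ku, averaged 103.0 ± 16.1 and 88.1 ± 44.4 (log2 -0.42, limma adjusted p = 0.688). Per kb of exon Xrcc6 stood at 88.0 ± 15.4 and Xrcc5 at 45.1 ± 14.2 in wild type, although the proteins form a pair.

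The Fanconi genes held the widest differences among the members. Fancd2 and Fanci encode the pair that is ubiquitinated at a crosslink and switches the pathway on. Fancd2 was at 8.4, 3.0, 25.9 and 11.3 normalised reads in wild type (libraries 1 to 4 in turn), then at 42.3, 22.4, 52.1 and 85.2 in those labelled knockout. Only wild type library 3 and library 2 labelled knockout overlapped (log2 2.14 ± 0.89, SE, p = 0.0270 and limma adjusted p = 0.190; exact permutation p = 0.0571). These values rested on 3 to 26 recovered reads in wild type and 18 to 92 in the libraries labelled knockout. Fanci was at 0.7, 3.9, 22.9 and 28.7 in wild type (libraries 1 to 4 in turn), then at 80.2, 37.4, 10.6 and 100 in those labelled knockout. Library 3 labelled knockout lay among the wild type values and the other 3 above them (log2 2.31 ± 1.08, SE, p = 0.0460 and limma adjusted p = 0.246; exact permutation p = 0.114). Without wild type library 1 the Fanci difference was 1.52 (limma adjusted p = 0.463), and without library 3 labelled knockout it was 2.95 (limma adjusted p = 0.183). Recovered reads for Fanci numbered 1 to 38 in wild type and 12 to 108 in the libraries labelled knockout. Both Fancd2 and Fanci had wild type values under 10 and reached 10 in every library labelled knockout. They cleared the filter through that group, where they were higher.

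The Fanconi core complex, which places the ubiquitin, showed no common direction. Fanca averaged 14.4 ± 14.3 in wild type and 56.5 ± 48.2 in the libraries labelled knockout (log2 1.74, limma adjusted p = 0.350), Fancc 100.4 ± 15.2 and 179 ± 107.5 (log2 0.65, limma adjusted p = 0.416). Like Fancd2 and Fanci, Fanca cleared the filter only with the libraries labelled knockout. Fancl, the ubiquitin ligase subunit, averaged 125 ± 74.5 and 81.5 ± 24.9 (log2 -0.42, limma adjusted p = 0.695). Fancb, which is X-linked, was below the filter and was not tested. It was at 0.7, 0, 30.9 and 19.7 in wild type (libraries 1 to 4 in turn), then at 8.7, 8.7, 7.1 and 6.5 in those labelled knockout. Exons of Fancd2 (257 bases), Fanci (921 bases), Fanca (920 bases), Fancc (1558 bases) and Fancl (462 bases) overlap those of other annotated genes.

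Of the Fanconi pair, Fanci has an entry in the promoter table, and Parp1 is the member whose groups lay apart with the smallest error, so the 250 bases upstream of their start sites are shown from RefSeq (GRCm38.p6). The Fanci sequence lies at chr7:79392088-79392337 and the Parp1 sequence at chr1:180568641-180568890, both on the plus strand. Capitals mark the GC box GGGCGG on either strand, a letter pattern that Sp1-type factors are known to bind.
Fanci: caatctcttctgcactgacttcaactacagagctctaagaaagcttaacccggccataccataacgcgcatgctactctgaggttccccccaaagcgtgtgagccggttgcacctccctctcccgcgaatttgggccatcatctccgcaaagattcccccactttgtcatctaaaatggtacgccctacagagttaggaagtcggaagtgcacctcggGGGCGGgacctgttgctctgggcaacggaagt
Parp1: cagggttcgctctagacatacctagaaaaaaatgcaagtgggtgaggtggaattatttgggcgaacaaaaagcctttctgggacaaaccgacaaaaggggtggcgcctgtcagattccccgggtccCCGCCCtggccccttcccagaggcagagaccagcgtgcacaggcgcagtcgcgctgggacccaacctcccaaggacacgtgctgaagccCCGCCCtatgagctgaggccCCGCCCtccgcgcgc
The Fanci window held 1 GC box and the Parp1 window 3. A GC box was present in 22 of the 32 member promoters found in the table (68.8%) and in 32.7% of all 32851 promoters listed there, which include those of non-coding genes. The pattern CCAAT (or its reverse complement) was in 18 of the 32 (56.2%) and in 33.8% of all. The E2F pattern TTTNNCGC, in which N is any base, was in 4 (Brca2, Chek2, Msh3 and Xrcc6, 12.5%) and in 4.28% of all. TTTGAA, the pattern of cell cycle genes silenced in quiescence, was in 0 of 32 and in 16.0% of all. The other 3 patterns had no match in the Fanci or Parp1 window, and a match is a run of letters, not a measured binding site.

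Mismatch repair genes were close to level. Msh6, a subunit of the sensor of base mismatches, was at 314.0, 412.9, 356.9 and 312.9 normalised reads in wild type libraries 1 to 4. It was at 479.8, 441.4, 420.6 and 411.1 in libraries 1 to 4 labelled knockout. Only wild type library 2 reached the range of the libraries labelled knockout (log2 0.33 ± 0.23, SE, limma adjusted p = 0.441). Msh3, which recognises larger loops, averaged 79.2 ± 39.5 and 86.7 ± 29.5, and Pms2, the nicking subunit, 89.3 ± 17.1 and 78.7 ± 25.0.

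Base excision and single-strand break repair held the member of smallest p. Xrcc1 is the scaffold that gathers the single-strand break enzymes. It was at 163.6, 190.2, 180.5 and 102.8 normalised reads in wild type (libraries 1 to 4 in turn), then at 430.2, 303.0, 181.1 and 359.3 in those labelled knockout. Libraries 1, 2 and 4 labelled knockout lay above all wild type libraries, and library 3 lay between wild type libraries 2 and 3. The log2 difference of 0.96 ± 0.33 (SE) had p = 0.00929 and limma adjusted p = 0.115 (exact permutation p = 0.0571). It ran from 0.77 to 1.21 in the fits that left out 1 library, with limma adjusted p from 0.0588 to 0.307.

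Parp1, the enzyme that senses strand breaks and marks them with poly(ADP-ribose), was at 497.1, 546.9, 410.8 and 427.0 in wild type and at 756.8, 599.8, 708.6 and 556.5 in the libraries labelled knockout. All 4 libraries labelled knockout lay above all 4 of wild type, the lowest by a narrow margin. The log2 difference was 0.48 ± 0.21 (SE), with unadjusted p = 0.0374 and limma adjusted p = 0.222. The exact permutation p of 0.0286 is the smallest that 70 assignments allow. Lig3, the ligase bound by Xrcc1, averaged 159 ± 79.6 and 169 ± 93.3 (log2 0.05, limma adjusted p = 0.965). Of the enzymes that act first on a damaged base, Ogg1, the glycosylase for oxidised guanine, averaged 16.7 ± 11.0 and 26.7 ± 12.2, and Ung, the glycosylase for uracil, 42.7 ± 44.6 and 25.1 ± 21.4. Apex1, which cuts after them, averaged 479 ± 54.6 and 569 ± 93.96 (log2 0.24, limma adjusted p = 0.563).

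Nucleotide excision genes lay on both sides of 0. Ercc2, a helicase of the TFIIH complex that opens DNA around bulky lesions, was at 25.8, 15.8, 10 and 26.5 in wild type libraries 1 to 4. It was at 46.7, 59.9, 34.5 and 81.5 in libraries 1 to 4 labelled knockout. The groups did not overlap (log2 1.49 ± 0.72, SE, p = 0.0523 and limma adjusted p = 0.260; exact permutation p = 0.0286). The counts were low, 10 to 37 recovered reads in wild type and 32 to 88 in the libraries labelled knockout, and 1780 bases of its exons overlap those of other genes. Before rounding, wild type library 3 lay just under the filter value of 10. Ercc2 thus cleared the filter only with the libraries labelled knockout, where it was higher. Ercc3, the other helicase of the complex, averaged 184.5 ± 34.7 and 167 ± 24.1 (log2 -0.13, limma adjusted p = 0.852). Ercc1, a subunit of the nuclease that cuts beside the lesion, averaged 64.1 ± 25.5 and 120 ± 37.4 (log2 0.94, limma adjusted p = 0.280). Xpa, which verifies the damage, averaged 107 ± 68.2 and 41.3 ± 12.03 (log2 -1.08, limma adjusted p = 0.360), and wild type library 2 (24.6) lay among the values of the other group.

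The RecQ helicases, which dissolve joined DNA structures, overlapped between groups. Blm was at 25.1, 13.8, 21.9 and 51.4 in wild type (libraries 1 to 4 in turn), then at 39.4, 52.4, 10.6 and 50 in those labelled knockout (limma adjusted p = 0.841). Library 3 labelled knockout was the lowest of all 8 and wild type library 4 was second only to library 2 labelled knockout. Wrn averaged 92.7 ± 47.6 and 83.8 ± 35.7 (limma adjusted p = 0.918).

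**Figure D3:**
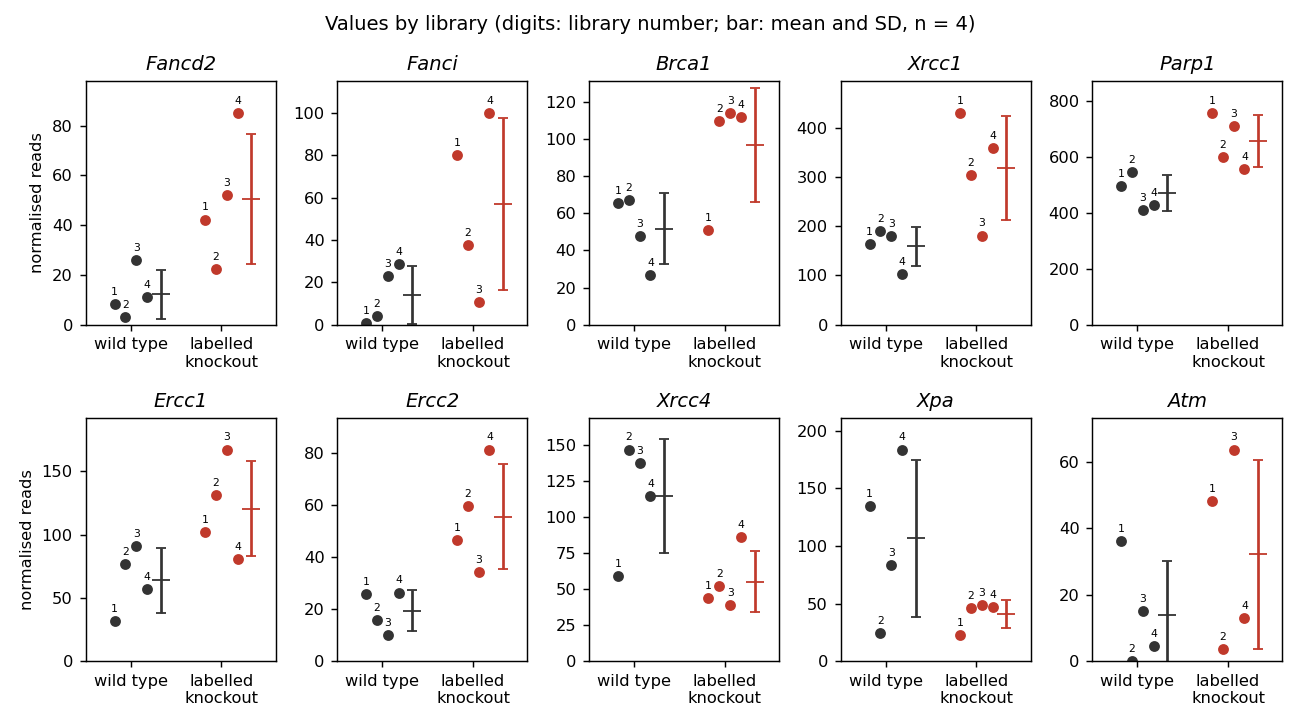
Normalised reads of 10 DNA repair genes in each library (digits give the library number), with mean and SD beside them, wild type in dark and libraries labelled knockout in red. The groups lie apart for Parp1 and Ercc2 and overlap by at least 1 library for the other 8.

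The differences among the members moved with the GC content of their transcripts. Across the 38 tested members the Spearman rho between GC content and the log2 difference was 0.404, and across all tested genes with a GC value it was 0.449 (points are genes measured in the same 8 libraries). Of 10 members with a GC content under 45% 3 lay above 0 (median -0.26), of 16 members from 45% to 50% 13 did (median 0.28) and of 12 members at 50% or more 9 did (median 0.56). The medians of all tested genes in the same bands were -0.43, -0.06 and 0.32. In these bands 23.42%, 45.35% and 70.22% of all tested genes lay above 0. Xrcc1 (59.3%) and Ercc2 (59.1%) had the highest GC content of the members, and Atr (40.8%), Chek1 and Fancl (both 41.0%) the lowest.

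Coding sequence shows how far apart members stand in this respect. The first 150 coding bases of Xrcc1 (chromosome 7, 24546289 to 24573440, plus strand) and Xrcc4 (chromosome 13, 89774027 to 90089608, minus strand) are given from GENCODE M21, with G and C in capitals.
Xrcc1: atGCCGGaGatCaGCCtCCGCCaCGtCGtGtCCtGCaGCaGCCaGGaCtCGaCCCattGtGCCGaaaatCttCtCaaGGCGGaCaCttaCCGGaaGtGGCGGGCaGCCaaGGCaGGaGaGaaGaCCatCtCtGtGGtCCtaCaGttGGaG
Xrcc4: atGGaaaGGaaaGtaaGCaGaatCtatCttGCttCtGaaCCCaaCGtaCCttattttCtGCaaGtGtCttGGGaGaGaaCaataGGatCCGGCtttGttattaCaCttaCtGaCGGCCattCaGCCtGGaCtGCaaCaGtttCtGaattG
G and C make up 59.3% of the Xrcc1 stretch and 42.7% of the Xrcc4 stretch. Over the full coding sequence the shares were 58.9% and 44.6%, and at the third codon position 65.3% and 44.0%. The log2 differences of these genes were 0.96 and -1.03 as deposited and 0.44 and -0.60 once the trend in GC content and transcript length was removed from each library.

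With that trend removed 0 members passed (limma adjusted, 0.282% of all genes did) and 2 had an unadjusted limma p under 0.05, Fancd2 and Fanci (5.26% of 38, against 12.7% of all genes). Both cleared the filter through the libraries labelled knockout, as stated above. The log2 difference was 2.14 before and 2.29 after removal for Fancd2, 2.31 and 2.37 for Fanci, with limma adjusted p of 0.280 and 0.368. The log2 difference went from 0.96 to 0.44 for Xrcc1, from 0.48 to 0.22 for Parp1, from 1.49 to 0.95 for Ercc2 and from 0.94 to 0.50 for Ercc1. Brca1 went from 0.91 to 1.07 and Brca2 from 0.53 to 0.93 (limma adjusted p = 0.406 and 0.423). A sign change was seen for 5 members, all from below to above 0, namely Atr, Chek1, Nbn, Fancl and Wrn. After removal 30 of 38 members lay above 0 (median 0.34) and 50.6% of all genes did (median 0.01).

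**Figure D4:**
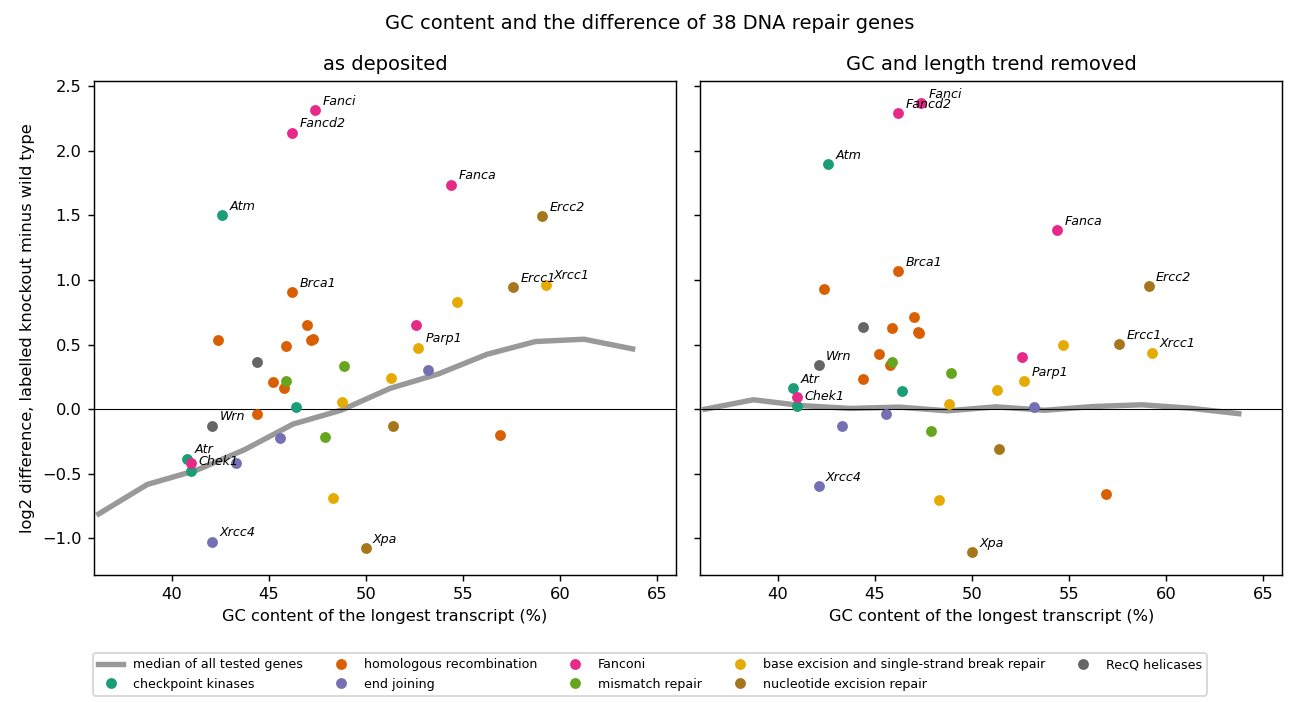
Log2 difference of 38 DNA repair genes against the GC content of the longest transcript, as deposited (left) and with the GC and length trend of each library removed (right); the grey line is the median of all tested genes in bins of 2.5% GC. Members of higher GC content tend to lie higher on the left, and on the right Xrcc1, Ercc1 and Parp1 lie nearer to 0 while Fancd2 and Fanci stay above 2.

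Cycling cells express more of several recombination and Fanconi genes, so the level of 10 cycling markers is set beside them. Their sum was 707.4, 3340.4, 1306.1 and 2221.4 normalised reads in wild type (in library order), then 1649.3, 1382.8, 2639.1 and 4118.6 in those labelled knockout. The groups overlapped, and 0 of 10 markers passed the threshold, against 3.80% of all tested genes. The log2 difference lay above 0 for 7 of these 10 markers and for 51.3% of all tested genes. It was largest for Aurkb (1.42), Mki67 (1.40) and Ccnb2 (0.98), with limma adjusted p of 0.102, 0.2645 and 0.338. Below 0 lay Bub1 (-1.05), Ccnb1 (-0.34) and Cdc20 (-0.06). The median deviation of the 10 tested recombination genes from their means over all libraries was -0.29, 0.09, -0.05 and -0.23 (log2) in wild type and 0.01, 0.34, 0.02 and 0.52 in the libraries labelled knockout. For the 5 tested Fanconi genes it was -1.08, -1.12, -0.10 and 0.60 in wild type and 0.47, 0.08, 1.27 and 1.96 in those labelled knockout. Wild type library 1 was lowest for the markers and the recombination genes, and library 4 labelled knockout highest for the markers and both gene groups. Wild type library 2 had the second highest marker sum and the lowest Fanconi median. The part of cycling cells in these values was not tested. Without wild type library 1, 6 of 10 recombination genes lay above 0 (median 0.08), against 8 of 10 (median 0.51) with all libraries.

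Of other cell types the megakaryocyte and platelet markers were higher in the libraries labelled knockout. Of 6 listed markers 5 were measured, 4 passed the test and all 5 lay above 0, with sums of 693.9 to 1087.6 in wild type and 1834.2 to 2321.6 in the libraries labelled knockout. Of 8 erythroid markers 5 were measured, 3 tested and 1 passed (sums 141.3 to 340.9 and 292.6 to 385.0). For monocytes and macrophages (1 of 6 measured), B cells (2 of 6), T and NK cells (1 of 6), dendritic cells (1 of 4) and endothelial and stromal cells (2 of 6) none passed and the summed ranges overlapped, and the 8 neutrophil markers were not analysed here. The part of these cells in the repair gene values was not tested.

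Other genes of the same routes, 108 tested of 118 listed, were counted in the same fit. None passed (0 of 108, limma adjusted), 20 had an unadjusted p under 0.05 (18.5%, 11 higher and 9 lower), and edgeR also called 0, DESeq2 3 and limma-voom 4. Among all 10989 tested genes 3.80% passed in limma and 19.7% had an unadjusted p under 0.05. Of these 10989, edgeR called 341 (TMM) and 336 (RLE), DESeq2 764 and limma-voom 651. The median log2 difference was 0.19, and 64 of 108 lay above 0, against 51.3% of all tested genes. By route 14 of 18 recombination genes and 6 of 9 Fanconi genes lay above 0, while 13 of 20 nucleotide excision genes lay below 0. With the trend in GC content and transcript length removed, 14 recombination and 8 Fanconi genes lay above 0. So did 10 of the 20 nucleotide excision genes, whose median went from -0.22 to -0.01. Rad23b, which stabilises the lesion sensor of that route, is named after its values were seen, since its limma adjusted p was the smallest of the 108. It was at 286.9, 386.3, 218.4 and 243.4 in wild type and at 106.5, 157.1, 127.2 and 125.0 in the libraries labelled knockout, with no overlap (log2 -1.11 ± 0.31, SE, limma adjusted p = 0.0533).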

How the data were processed

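Libraries were made with the Nextera XT kit, which does not mark strand, per the labels' protocols. The submitters' processing notes name bcl2fastq, HISAT2, featureCounts, Subread, DESeq2 and mm10, without versions. The authors deposited a normalised signal per gene, 8 columns. All values (100%) were whole multiples of 1 step per library within 0.001, as read counts divided by a size factor are. In wild type library 3 the step is so near 1 that recovery rests on low values. The entry without a name was left out.

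The log2 of each value plus 1 was taken, and the filter asked for a value of 10 or more in 4 or more libraries (10989 genes passed and 865 did not). Genotypes were compared by limma 3.58.1 (R 4.3.3, eBayes with trend and robust, two-sided, Benjamini-Hochberg over all tested genes). The 95% intervals are not adjusted. With 4 against 4 libraries exact permutation tests have 70 assignments. edgeR 4.0.16, DESeq2 1.42.0 and limma-voom ran on recovered reads. GC content and length come from GENCODE M21 (mm10), matched for 11725 of 11854 entries; the trend was fitted per library with splines. The fits were tested on simulated data. The names of other repair genes called only under an alternative are not all reported here. Members and lists were chosen with earlier results of these data known. Every member is named; values per library are given for members with an unadjusted p under 0.05, with groups apart, or of smallest p in their role.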

Additional observations from a re-analysis of the deposited data

Results flagged for a closer look

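In 5 of 78 groups of 4 libraries (39 members in each genotype) 1 library lay far from the other 3, beyond Dixon's 95% limit. Chance alone marks about 1 in 20 such groups. Brca1 was 51.0 normalised reads in library 1 labelled knockout and 109.7 to 114.0 in the others. Fanca was 35.5 in wild type library 4 and 4.0 to 9.1 in the others. Apex1 was 709.5 in library 2 labelled knockout and 510.4 to 534.3 in the others. Ung was 109.4 in wild type library 2 and 16.7 to 22.7 in the others. Xpa was 23.3 in library 1 labelled knockout and 46.1 to 48.6 in the others.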

How the results depend on the processing

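Over 18 alternatives the 38 members gave 684 values, of which 640 kept direction and side of the threshold, 43 changed sign (14 members, none past the threshold) and 1 newly passed (Xrcc1 in limma-voom, 1 member passing). The cause of these changes was not tested. Genes passing among all tested numbered 418, and 764 in DESeq2, 651 in limma-voom, 277 with the replicate block, 31 with the GC trend removed, 27 with both, 242 with the GC trend removed and wild type library 2 left out, and 49 (without library 2 labelled knockout) to 881 (without wild type library 2) in the fits leaving out 1 library (wild type 1, 3 and 4 gave 110, 114 and 155, labelled knockout 1, 3 and 4 gave 61, 151 and 237). The replicate block changed no call of a member; libraries sharing a number did not deviate together (correlations -0.0566 to 0.0148) and 0 of 8 libraries correlated best with their own number. Other repair genes passing numbered 3 in DESeq2, 4 in limma-voom, 1 with the GC trend removed and wild type library 2 left out, and 0 to 3 in the fits leaving out 1 library (3 without wild type library 2, and 1 without wild type library 1 or without library 4 labelled knockout).

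The log2 difference turned positive with the GC trend removed, with or without the replicate block, for Atr (0.16), Chek1 (0.0253), Fancl (0.0937), Wrn (0.34) and Nbn (0.23). With wild type library 2 left out as well it was 0.31, 0.0518, 0.70 and 0.21 for Atr, Chek1, Wrn and Nbn, and -0.0281 for Xrcc6. Chek2 was -0.01 in edgeR (-0.0144 with TMM, -0.0148 with RLE factors) and -0.0148 in DESeq2. Xrcc3 was 0.145 and 0.146 in edgeR, 0.147 in DESeq2 and 0.005 in limma-voom, and Wrn 0.12 in limma-voom. Leaving out 1 library gave ranges of -0.3685 to 0.2046 for Wrn, -0.6832 to 0.0753 for Prkdc, -0.1497 to 0.0682 for Nbn, -0.3948 to 0.0191 for Xrcc5, -0.1896 to 0.4115 for Mre11a, -0.1231 to 0.4602 for Msh3, -0.4152 to 0.4174 for Chek2, -0.0756 to 0.9726 for Rad54l, -0.2816 to 0.3412 for Lig3 and -0.5549 to 0.573 for Xrcc3. Low counts limit the Fanconi pair, Atm and Ercc2.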
